A study of Mus musculus with 78 samples.

Results

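Nascent transcription after 6 h of TRIM28 degradation was measured in TRIM28-FKBP mESCs, V6.5 mouse embryonic stem cells whose endogenous TRIM28 protein carries the FKBP degron tag. The comparison holds every gene of the TT-SLAM-seq table in 6 of its 12 libraries, out of 78 samples in the whole series. Of 54435 gene IDs, 32200 were above 0 in at least 1 of these 6 libraries, and 13357 had enough signal to be tested. Cells were given 500 nM dTAG-13, the ligand that brings the tagged protein to degradation, for 6 h (3 libraries, replicates 1 to 3). The control group had the vehicle DMSO at 0.05% (3 libraries) and is labelled 0 h. The labels name no DMSO group of 6 h, so an effect of time cannot be told apart from that of dTAG-13. Both groups carry the tagged alleles. Before collection, RNA was labelled for 15 min with 500 µM 4-thiouridine. The lines are grown on mouse embryonic fibroblasts in serum and LIF, and the study's methods state that these feeders were depleted on gelatin before TT-SLAM-seq. Libraries of 2 h and 24 h of dTAG-13 are given here only beside the 6 h values. The question is which genes were transcribed more or less once TRIM28 had been removed for 6 h.

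TRIM28 is a corepressor with no DNA-binding domain of its own. KRAB zinc finger proteins bring it to endogenous retroviruses and imprinted regions, where its partner SETDB1 deposits H3K9me3, HP1 proteins bind that mark and transcription is held off. In embryonic stem cells these retroviruses are kept silent in this way, while pluripotency genes are driven by large clusters of enhancers. RNA labelled for minutes is mostly unspliced and reports synthesis, whereas the pool of mature mRNA also depends on decay and follows synthesis with a delay. Whether less signal came from fewer cells of a type or from less RNA per cell cannot be told apart in such bulk samples.

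Values are FPKM, labelled reads scaled to the length of the whole gene body, introns included, and to the reads of the library. The libraries were scaled to 7293353, 12601215 and 11403909 reads in DMSO and to 16203903, 18270001 and 16592194 reads at 6 h. A read that overlapped several genes on one strand was counted for each of them. Log2 changes are differences of log2(FPKM + 0.5) between 6 h and DMSO, positive where 6 h was higher, and they understate the change of low genes. A gene rose or fell where its adjusted p was below 0.05 (limma, Benjamini-Hochberg), and it was called where it also changed by more than 2-fold. Gm26917, a gene that overlaps ribosomal RNA sequence, took 29.3% to 35% of reads in DMSO and 23.6% to 25.2% at 6 h, so the level of every other gene is set in part by this one. The log2 change of the median gene was 0.06 as deposited, -0.01 with libraries centred on their median, and -0.05 when scaled without Gm26917. Of the markers of other cells, 3 of 20 feeder fibroblast genes were high enough to be tested, and 0 of these rose or fell (limma, 1 with an unadjusted p below 0.05). Their summed level was 5.75 to 7.27 FPKM in DMSO and 6.48 to 8.35 FPKM at 6 h, and Lum was at 0. Endoderm (5 of 24 tested) and trophoblast genes (4 of 15) had 0 that rose or fell as well (unadjusted p below 0.05 in 2 and 1), and of 5 neural genes tested Sox1 rose by 0.43 (adjusted p = 0.025). With libraries centred on their median, scaled without Gm26917 or on read numbers, 0 neural genes rose.

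Called higher were 50 genes (0.374% of those tested) and called lower were 26 (0.195%). With the 2 groups alone, without the 2 h and 24 h libraries, 27 of the 50 and 4 of the 26 were still called. Among those longer than 200 bp these were 12 of 21 higher and 1 of 14 lower. Leaving out 1 library gave 21 to 88 higher and 6 to 48 lower, with 21 and 6 without DMSO replicate 1 and 88 and 48 without DMSO replicate 3. At any size, 1044 genes rose (7.82%) and 170 fell (1.27%). This split depends on the scaling, because scaled without Gm26917 the numbers were 627 and 550 at any size and 47 and 43 past 2-fold. With libraries centred on their median they were 730 and 341, and 37 and 31. The 3 libraries of 6 h did not overlap those of DMSO in any of the 76 called genes, while over all genes tested 24.0% lay entirely above DMSO and 7.55% entirely below. Small genes made up much of the calls. Of the 50 higher genes, 29 are 200 bp or less, 28 of them with a mean below 10 reads, and 41 lie inside another gene on the same strand. They include 16 miRNA genes, 12 gene models of the tentative class TEC, 6 snoRNA genes, 4 snRNA genes and 4 protein-coding genes. Some of the higher genes, with Mir140, Mir151 and Gm27402 as examples, were at 0 in all 3 DMSO libraries and so could only rise. The 26 lower genes hold 12 of 200 bp or less, and of these 8 had a mean below 10 reads. They include 5 miRNA, 4 rRNA and 4 protein-coding genes, and 4 processed pseudogenes. Of all 13357 genes tested, 11666 are longer than 200 bp. Shares of nested genes and of gene classes over all genes tested are not given here, so those counts are a description only.

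**Figure D1:**
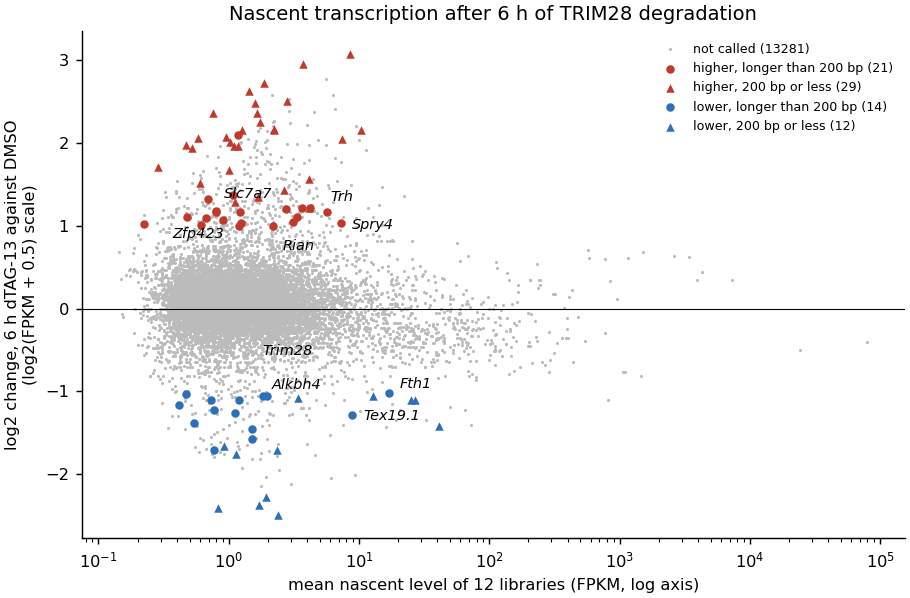
The x axis is the mean nascent level of all 12 libraries (FPKM, log axis) and the y axis the log2 change from DMSO to 6 h of dTAG-13, with 1 point per tested gene. Red marks the 50 genes called higher and blue the 26 called lower, triangles stand for genes of 200 bp or less, and most called genes lie below 10 FPKM.

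The protein-coding genes called higher were Slc7a7, Trh, Zfp423 and Spry4. Slc7a7, which encodes a subunit of an exchanger of basic and neutral amino acids (chromosome 14, 54369442 to 54417780, GRCm38), had 1.95, 1.37 and 1.62 FPKM in DMSO and 5.19, 4.21 and 3.89 FPKM at 6 h. Its lowest 6 h library was above every DMSO library, and the log2 change was 1.20 ± 0.118 (SE, adjusted p = 0.00342). It was called in 6 of 6 fits that left out 1 library. At 24 h it stood at a mean of 1.5 FPKM, 1.29 lower than at 6 h on the log2 scale (adjusted p = 0.000145). Zfp423, a zinc finger transcription factor of neural and fat cell development, spans chromosome 8, 87661810 to 87959595. Its levels were 0.806, 0.699 and 0.623 FPKM in DMSO and 2.11, 2.07 and 1.75 FPKM at 6 h. The groups lay far apart, with a log2 change of 1.03 ± 0.0812 (adjusted p = 0.00134), and the gene was called in 4 of 6 fits without a library.

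Spry4, an inhibitor of receptor tyrosine kinase signalling to ERK, was higher at 2 h than at 6 h. Its nascent level was 4.45, 2.96 and 3.69 FPKM in DMSO, 15, 13.7 and 17.2 FPKM at 2 h, 7.01, 8.56 and 8.47 FPKM at 6 h, and 2.12, 2.16 and 2.24 FPKM at 24 h. The 6 h libraries lay between those of 2 h and those of DMSO with no overlap. The log2 change at 6 h was 1.03 ± 0.139 (adjusted p = 0.0058), and the level had fallen by 0.89 since 2 h (adjusted p = 0.0111). By 24 h it had fallen by a further 1.67 (adjusted p = 0.000104). Trh, which encodes the precursor of thyrotropin-releasing hormone (chromosome 6, 92242061 to 92244650), had 3.18, 2.54 and 3.05 FPKM in DMSO and 6.36, 5.69 and 10.1 FPKM at 6 h. One 6 h library (replicate 3) stood well above the others, and the log2 change was 1.17 ± 0.204 (adjusted p = 0.0126). Spry4 remained called in 3 and Trh in 4 of the 6 fits without a library.

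The protein-coding genes called lower were Tex19.1, Alkbh4, 2200002D01Rik and Fth1. Tex19.1, a germ cell and stem cell gene known for restraining retrotransposons (chromosome 11, 121146143 to 121148319), had 14.2, 16.7 and 9.83 FPKM in DMSO and 4.57, 6.29 and 4.79 FPKM at 6 h. Every 6 h library was below the lowest DMSO library. The log2 change was -1.28 ± 0.181 (adjusted p = 0.00683), and it was called in 6 of 6 fits without a library. Fth1, the heavy chain of the iron store ferritin (chromosome 19, 9982703 to 9985092), had 32.3, 23.4 and 18.4 FPKM in DMSO and 10.1, 12.8 and 12 FPKM at 6 h. Its DMSO libraries spread more than its 6 h libraries did, and the log2 change was -1.02 ± 0.185 (adjusted p = 0.0142), called in 3 of 6 such fits.

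Alkbh4, an AlkB family dioxygenase (chromosome 5, 136136146 to 136141615), had 4.59, 3.16 and 2.1 FPKM in DMSO and 1.32, 1.13 and 1.29 FPKM at 6 h. Here too replicate 1 of DMSO was the highest and replicate 3 the lowest, and the call was kept in 1 of 6 fits without a library (log2 change -1.06, adjusted p = 0.0222). The fitted change ran from -1.31 to -0.82 over these fits. 2200002D01Rik, an uncharacterised gene on chromosome 7, had 2.02, 2.71 and 1.84 FPKM in DMSO and 1.1, 0.632 and 0.664 FPKM at 6 h. It stood at 2.99, 2.63 and 3.48 FPKM at 24 h and rose by 1.45 between 6 h and 24 h (adjusted p = 0.000626). Its log2 change against DMSO was -1.05 (adjusted p = 0.0129).

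**Figure D2:**
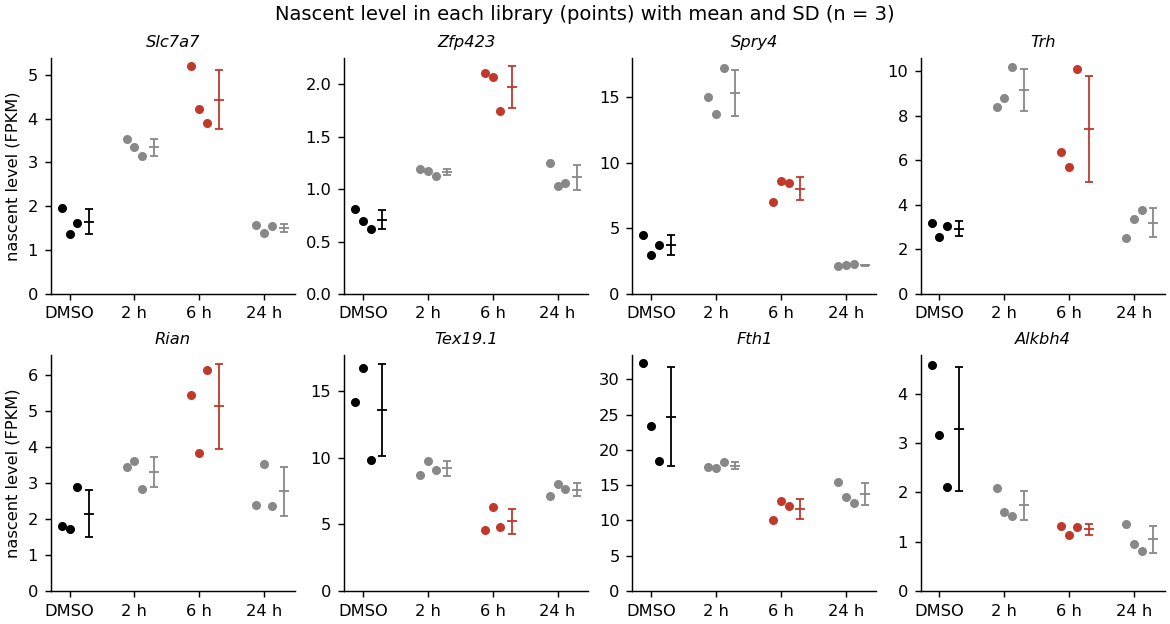
Each panel shows the nascent level of 1 gene (FPKM, axis from 0), with 1 point per library and the mean and SD of 3 libraries beside them, in DMSO (black), at 6 h (red) and at 2 h and 24 h (grey). In these 8 genes the 6 h points do not overlap the DMSO points, the 2 h points of Spry4 lie above its 6 h points, and those of Trh overlap its 6 h points.

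Trim28 itself had 1.98, 1.74 and 1.89 FPKM in DMSO and 1.48, 1.36 and 1.44 FPKM at 6 h. The log2 change was -0.30 (adjusted p = 0.0278), but in 0 of 6 fits without a library was the adjusted p below 0.05. Its mRNA was 624 TPM in DMSO and 495 TPM at 6 h (log2 change -0.34, adjusted p = 0.00042). The tag acts on the protein, so RNA does not check the labels. Of 31 genes of the TRIM28 and H3K9me3 machinery tested, 3 rose, 1 (Trim28) fell and 0 were called, where 7.82% of all genes tested rose and 1.27% fell. The 3 that rose were Atrx, a chromatin remodeller (0.65, adjusted p = 0.0431), Ehmt1, an H3K9 methyltransferase (0.33, adjusted p = 0.0228), and Cbx5, which encodes HP1α (0.24, adjusted p = 0.0279). Setdb1 had a log2 change of 0.21 (adjusted p = 0.364). With libraries centred on their median 2 of the 31 rose, scaled without Gm26917 1 did, and with each library's trend with gene length subtracted 0 rose and 2 fell.

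Of 17 listed KRAB zinc finger genes tested, Zfp819 (0.28, adjusted p = 0.0397) and Zfp961 (0.27, adjusted p = 0.0414) rose, 0 fell, and 0 rose with libraries centred on their median. The median of the list was 0.19. Among 270 tested genes with a Zfp number, 21 rose and 2 fell (median 0.11), a share of rises near the 7.82% of all genes tested, and scaled without Gm26917 the numbers were 9 and 8. Zfp597 had 0.836, 0.814 and 0.779 FPKM in DMSO and 1.33, 1.4 and 1.35 FPKM at 6 h. The libraries of each group lay close together, and the log2 change was 0.51 ± 0.053 (adjusted p = 0.00342), with a change of 0.37 in mRNA (adjusted p = 0.00621). Zfp275 rose by 0.49 (adjusted p = 0.00837) and by 0.25 in mRNA (adjusted p = 0.00321).

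The list for feedback on FGF and ERK signalling also holds Lefty1, Lefty2, Id1, Id2 and Id3, which are not feedback genes of this pathway. These did not pass the test, but they count in the 18 genes and in the medians. Of the 18, 5 rose and 0 fell, with a median log2 change of 0.22. Over all genes tested 7.82% rose, and their median was 0.06. With the trend with gene length subtracted, 3 rose and 1 fell, with a median of 0.10. Beside Spry4 the 5 that rose were Spred1, another inhibitor of the pathway, the ERK-induced factor Etv5, Spred2 and the receptor gene Fgfr2. Spred1 had 2.54, 2.27 and 2.87 FPKM in DMSO and 5.04, 4.28 and 5.06 FPKM at 6 h, a rise of 0.79 (adjusted p = 0.0134). Its level rose by 0.57 between 2 h and 6 h (adjusted p = 0.0413), over which Spry4 fell. Etv5 rose by 0.46 (adjusted p = 0.00899). With libraries centred on their median 3 of the 18 rose. In mRNA, 3 of the 18 rose and 5 fell, among them Spred1 (-0.26, adjusted p = 0.00144) and Etv5 (-0.23, adjusted p = 0.022). Of 22 immediate early genes, the fast responders to stress and growth signals, 0 rose and 0 fell (limma, 4 with an unadjusted p below 0.05, and 0 and 0 on read numbers).

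Of 23 pluripotency genes tested in nascent RNA, 1 rose and 2 fell, against 7.82% and 1.27% of all genes tested, and the median log2 change was 0.06, the same as that of all genes. Nr5a2, a nuclear receptor that can activate Pou5f1, had 0.363, 0.339 and 0.417 FPKM in DMSO and 0.868, 0.76 and 0.855 FPKM at 6 h, a rise of 0.61 (adjusted p = 0.00452). Nr0b1 had 2.62, 2.43 and 1.68 FPKM in DMSO and 1.31, 1.36 and 1.58 FPKM at 6 h, a fall of 0.50 on the log2 scale (adjusted p = 0.0416). Fgf4, the main FGF ligand of these cells, had 4.63, 3.97 and 3.6 FPKM in DMSO and 2.25, 2.97 and 2.96 FPKM at 6 h. For Nr0b1 the adjusted p was below 0.05 in 1 of 6 fits without a library, and for Fgf4 in 3 of 6. Pou5f1, which encodes OCT4, had 4.27, 4.51 and 5.98 FPKM in DMSO and 6.19, 5.55 and 5.86 FPKM at 6 h, so that the groups overlapped (0.24, adjusted p = 0.29). Nanog (0.05, adjusted p = 0.926) and Sall1 (0.13, adjusted p = 0.261) did not pass the test either. With libraries centred on their median, and also scaled without Gm26917, 1 of the 23 rose and 3 fell. On read numbers 2 of 24 rose and 3 fell, where 1823 and 1076 of all 17575 genes did. Mycn was among the 3 that fell on read numbers (-0.72, adjusted p = 0.000902).

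In RNA-seq of other samples of the same line, 16 of 24 pluripotency genes fell at 6 h and 0 rose, with a median log2 change of -0.30 on the log2(TPM + 0.5) scale. Over all 17922 genes tested there, 18.4% rose and 15.5% fell. With those libraries centred on their median 2023 genes rose and 4710 fell, and 20 of the 24 pluripotency genes fell. Past 2-fold, 139 genes (0.776%) were higher and 34 (0.19%) lower in mRNA. Pou5f1 mRNA was 1160 TPM in DMSO and 903 TPM at 6 h (-0.37, adjusted p = 0.00262). Klf4, another factor of the core circuit, had a change of -0.71 in mRNA (adjusted p = 1.66e-07). Its nascent levels were 3.3, 3.16 and 1.63 FPKM in DMSO and 1.48, 2.33 and 2.32 FPKM at 6 h, where the groups overlapped.

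Genes of the amino acid response fell in mRNA, and their median change in nascent RNA was near that of all genes. This program, driven by the factor ATF4, holds amino acid transporters, tRNA synthetases and enzymes of serine and asparagine synthesis. Of 33 gene IDs tested in nascent RNA, 5 rose and 0 fell, where 7.82% of all genes tested rose, and the median log2 change was 0.05, against 0.06 over all genes. In mRNA 32 of 36 fell and 0 rose, with a median of -0.78, and 32 also fell with libraries centred on their median. Of the nascent rises 0 were left with libraries centred on their median or scaled without Gm26917, where 1 and 2 genes of the list fell. Chac1, an enzyme that breaks down glutathione, had 0.522, 0.403 and 0.306 FPKM of nascent RNA in DMSO and 0.822, 0.816 and 0.746 FPKM at 6 h. The 6 h libraries were all higher, with a rise of 0.51 (adjusted p = 0.0348), while the mRNA went from 27.6 to 4.22 TPM (-2.56, adjusted p = 3.87e-08). Its adjusted p was above 0.05 in every fit without a library, and its mean was 13 reads in DMSO.

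Trib3, a target and inhibitor of the ATF4 pathway, had 0.871, 0.444 and 0.902 FPKM in DMSO and 0.747, 0.729 and 0.857 FPKM at 6 h. Those groups overlapped (0.07, adjusted p = 0.802), whereas its mRNA went from 50.3 to 15.3 TPM (-1.69, adjusted p = 1.05e-08). Asns, which makes asparagine, had 4.39, 4.45 and 3.85 FPKM in DMSO and 4.25, 4.16 and 4.42 FPKM at 6 h. Its nascent log2 change was 0.02 (adjusted p = 0.951) and that of its mRNA -0.79 (adjusted p = 2.45e-07). The amino acid transporter gene Slc7a5 gave 0.22 (adjusted p = 0.222) in nascent RNA and -1.13 (adjusted p = 3.55e-08) in mRNA. The nascent and mRNA changes come from different samples and different scales, and their difference was not tested. Trib3, Asns, Slc7a5 and Setdb1 above, like Fgfr2, were picked after their values were seen.

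**Figure D3:**
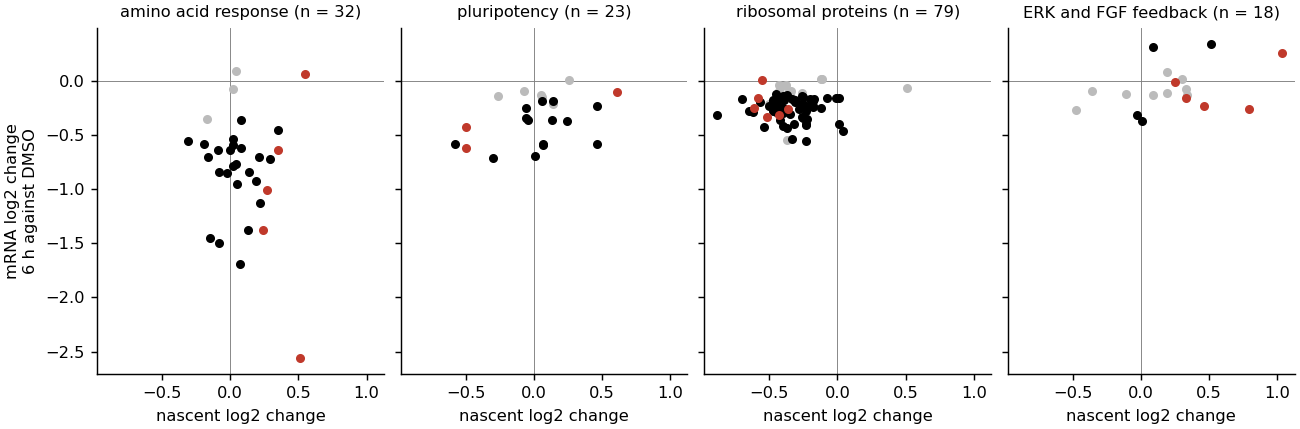
Each point is 1 gene, with its nascent log2 change (log2(FPKM + 0.5)) on the x axis and its mRNA log2 change (log2(TPM + 0.5)) on the y axis, both from DMSO to 6 h. Red points had a nascent adjusted p below 0.05, black points only an mRNA adjusted p below 0.05, and grey points neither. Amino acid response genes lie near 0 on the nascent axis and down to -2.56 on the mRNA axis, whereas ribosomal protein genes lie below 0 on both.

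Of 79 ribosomal protein genes tested, 6 fell and 0 rose, where 1.27% of all genes tested fell, and the median log2 change was -0.37. On read numbers, fitted with voom of limma over genes with a mean of at least 10 reads (an alternative chosen after seeing the data), 63 of 78 fell and 0 rose. In mRNA 68 of 85 fell and 0 rose, with a median of -0.21. Rpl12 had 38.5, 38.6 and 32.7 FPKM in DMSO and 25.9, 21.1 and 24.3 FPKM at 6 h (-0.61, adjusted p = 0.0239). Rps15 had 22.8, 23.5 and 22.4 FPKM in DMSO and 15.2, 13.2 and 17.3 FPKM at 6 h (-0.58, adjusted p = 0.0179). In both genes every 6 h library was below every DMSO library. Scaled without Gm26917 44 fell, and after each library's trend with gene length was subtracted 2 fell, with a median of -0.36.

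Among other lists, 2 of 13 interferon genes rose, Irf1 (0.74, adjusted p = 0.0243) and Gbp2 (0.51, adjusted p = 0.0366), and 0 fell. For each list here, the shares over all genes tested were 7.82% that rose and 1.27% that fell. Scaled without Gm26917, 0 of the 13 rose and 1 fell, and with libraries centred on their median 2 rose and 1 fell. On read numbers 2 of 22 rose and 1, Irf9, fell (-0.92, adjusted p = 0.00825). On FPKM Irf9 had a log2 change of -0.44 (adjusted p = 0.0715), and its mRNA rose by 0.42 (adjusted p = 0.00278). The interferon-induced factor Irf1 had 1.89, 2.4 and 2.59 FPKM in DMSO and 3.97, 3.38 and 5.31 FPKM at 6 h, and it rose in mRNA as well (0.69, adjusted p = 2.35e-06). Of 16 targets of p53 tested, 0 rose, and Phlda3 (-0.61, adjusted p = 0.0215) and Aen (-0.37, adjusted p = 0.0425) fell. On read numbers 6 of 20 fell and 0 rose, where 1076 of all 17575 genes fell. In mRNA 7 of 20 rose and 2 fell, where 18.4% of all genes rose and 15.5% fell. Aen rose in mRNA by 0.33 (adjusted p = 0.0356). Phlda3, an inhibitor of AKT, had 8.95, 9.21 and 8.37 FPKM in DMSO and 6.03, 5.66 and 5.15 FPKM at 6 h, and rose by 1.47 between 6 h and 24 h (adjusted p = 0.000112). Among 26 genes of RNA polymerase II, Mediator and elongation, the Mediator genes Med14 (0.73, adjusted p = 0.0158) and Med15 (0.34, adjusted p = 0.0109) rose and the polymerase subunits Polr2i (-0.43, adjusted p = 0.0161) and Polr2f (-0.42, adjusted p = 0.031) fell. 

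Cthrc1, which encodes a secreted protein that acts on collagen deposition, rose at 6 h and further by 24 h. Its levels were 0.458, 0.405 and 0.534 FPKM in DMSO, 0.909, 1.09 and 1.35 FPKM at 6 h, and 6.16, 5.75 and 8.34 FPKM at 24 h. The 6 h libraries were all above DMSO and all far below 24 h. The log2 change at 6 h was 0.74 ± 0.15 (adjusted p = 0.0203), that of its mRNA 0.83 (adjusted p = 2.2e-05), and the gene rose by a further 2.16 between 6 h and 24 h. In 2 of 6 fits without a library the adjusted p at 6 h was below 0.05.

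The direction of change went with gene length. Protein-coding genes were divided into 4 classes of 2207 by the length of the gene body. The median log2 change was -0.12 in the shortest class (up to 9.22 kb), -0.01 and 0.08 in the next, and 0.24 in the longest (from 48.4 kb). In the longest class 707 genes rose and 0 fell, and in the shortest 22 rose and 81 fell. In mRNA the medians of such classes were 0.04, 0.04, 0.02 and -0.02. Within each library, the median level of the shortest class stood above that of the longest by 0.79, 0.71 and 0.64 in DMSO and by 0.26, 0.31 and 0.42 at 6 h (log2). These groups did not overlap. The 2 h libraries gave 0.39, 0.38 and 0.65 and the 24 h libraries 0.36, 0.28 and 0.52, so that replicate 3 of 2 h overlapped DMSO. After each library's trend with length was subtracted (a setting chosen after seeing the data), 226 genes rose and 176 fell at any size, and 22 and 26 were called. Slc7a7 remained called (1.05, adjusted p = 0.00734), Tex19.1 too (-1.28, adjusted p = 0.0115), and Zfp423, of 297785 bp, went to 0.65 (adjusted p = 0.0173).

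**Figure D4:**
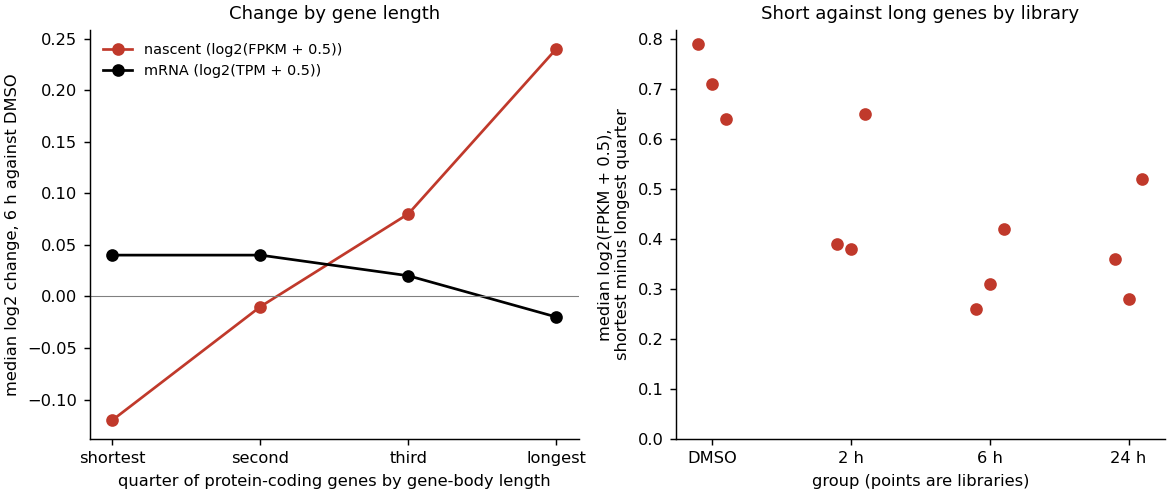
The left panel plots the median log2 change from DMSO to 6 h in 4 classes of protein-coding genes by gene-body length, for nascent RNA (red, -0.12 to 0.24) and mRNA (black, 0.04 to -0.02). The right panel plots, for each of the 12 nascent libraries, the median log2(FPKM + 0.5) of the shortest class minus that of the longest, which is 0.64 to 0.79 in DMSO and 0.26 to 0.42 at 6 h.

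Long genes with few reads per kilobase fell under the FPKM minimum, and the fit on read numbers reached them. It tested 17575 genes and called 181 higher (1.03%) and 147 lower (0.836%). With voom on the genes of the FPKM fit instead, 28 of the 50 higher and 24 of the 26 lower calls were kept. The fit on genes with at least 10 reads tested only 18 of the 50 and 11 of the 26, and called all of these. Protein-coding genes called higher had a median length of 95.4 kb and those called lower of 14.9 kb, against 27.2 kb over all protein-coding genes tested. Fam19a4, a neural chemokine-like gene of 229210 bp, had 85, 143 and 141 reads (not scaled for depth) in DMSO and 948, 923 and 884 reads at 6 h. Kcnh8, a potassium channel gene of 376485 bp, had 75, 110 and 146 reads in DMSO and 485, 541 and 601 reads at 6 h. Both had log2 changes of 2.06 (adjusted p = 2.98e-08) and 1.47 (adjusted p = 1.11e-05), and both were chosen after their values were seen. Fam19a4 mRNA had a log2 change of -0.04 (adjusted p = 0.834).

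The 41 higher calls inside other genes fall in 29 host genes on the same strand, with a median length of 161 kb. Hosts of genes called lower, such as Rps21 and Ifrd1, are not among these 29. On read numbers 20 of the 29 hosts rose and 0 fell, with a median log2 change of 0.57. Over all genes 1823 of 17575 rose on read numbers, and in the longest class of protein-coding genes (from 65.4 kb) 1355 of 3470 did. Because a read that overlaps host and nested gene was counted for both, a nested call and its host are not separate observations. Phf21a, which encodes a reader of unmethylated histone H3, holds the pseudogene Gm13786 and had 0.258, 0.291 and 0.323 FPKM in DMSO and 0.817, 0.739 and 0.837 FPKM at 6 h (0.71, adjusted p = 0.00395). Other hosts that rose were Snd1 (0.70, adjusted p = 0.00446, with Gm37978), Exoc4 (0.51, adjusted p = 0.0409, with Gm43168) and Tcf12 (0.59, adjusted p = 0.0158, with Gm37879). Among the hosts that did not pass the test were P4htm (-0.05, adjusted p = 0.762), Lima1 (0.06, adjusted p = 0.663) and Brwd1 (0.09, adjusted p = 0.659). Hosts were picked after the calls were seen.

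The host with most calls was Sfmbt2, a Polycomb gene expressed from the paternal allele in mouse extraembryonic tissue, with a large miRNA cluster in an intron. Sfmbt2 had 0.883, 0.773 and 0.94 FPKM in DMSO and 2.07, 1.68 and 2.08 FPKM at 6 h. Its log2 change was 0.84 (adjusted p = 0.00342), and on read numbers 1.03 (adjusted p = 1.39e-06), while its mRNA changed by -0.04 (adjusted p = 0.56). It holds 119 small RNA genes on its strand, of which 58 were tested and 9 called, where 0.374% of all genes tested were called higher. These genes share the reads of the same host, so the 9 calls are not separate results. Gm25451 had reads only at 6 h and could only rise. Reads over all 119 genes, not scaled for depth, were 39, 64 and 91 in DMSO and 327, 249 and 428 at 6 h. The 6 h libraries were the deeper ones. Gm22051 had 2 reads summed over the DMSO libraries and 46 at 6 h (log2 change 2.95, adjusted p = 0.00506). Mir669k went from 1 to 24 reads and Mir297c from 1 to 21. Counts this small give no firm fold for a single gene, and reads of host and hairpin cannot be told apart.

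**Figure D5:**
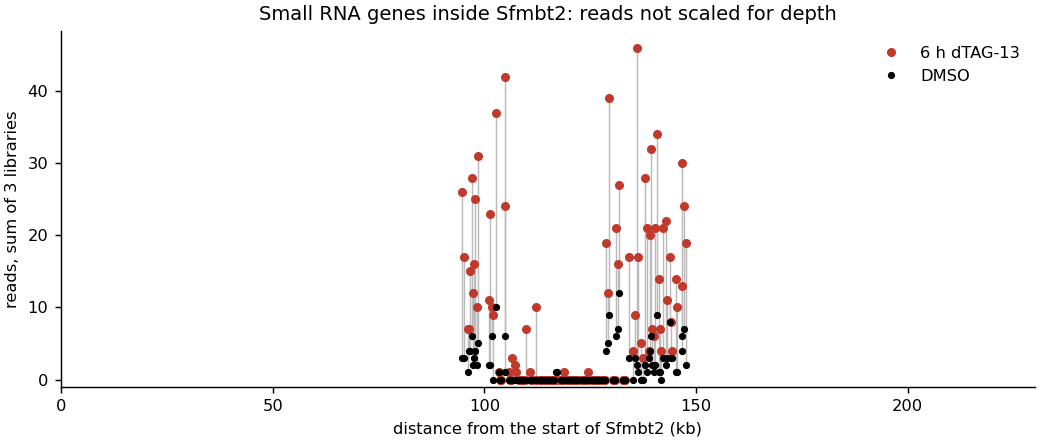
Each pair of points joined by a grey line is 1 small RNA gene inside Sfmbt2, placed by its distance from the start of Sfmbt2 (kb), with its reads summed over the 3 libraries of DMSO (black) and of 6 h (red), not scaled for depth. Of 119 genes, 67 had at least 1 read in the 6 libraries, and the 6 h points reach 46 reads.

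Of 22 imprinted genes tested, 1 (Rian) rose and 0 fell, where 7.82% of all genes tested rose. Rian, the noncoding host of a snoRNA cluster in the Dlk1-Dio3 domain (chromosome 12, 109603940 to 109661716), had 1.81, 1.72 and 2.89 FPKM in DMSO and 5.43, 3.83 and 6.13 FPKM at 6 h. The groups did not overlap, and the log2 change was 1.10 ± 0.216 (adjusted p = 0.0179), called in 2 of 6 fits without a library. Within and beside it, Gm26945 had 2.18, 2.21 and 3.49 FPKM in DMSO and 6.57, 5.36 and 8.43 FPKM at 6 h, and Gm37899 1.84, 2.08 and 2.59 FPKM and 6.45, 3.76 and 7.5 FPKM, each with a log2 change of 1.22. The snoRNA genes DQ267100 (3.07, adjusted p = 0.0267) and Gm23474 (2.05, adjusted p = 0.0427) inside Rian rose on 5 and 6 reads summed over DMSO. All 17 nested genes of 200 bp or less together had, not scaled for depth, 33, 65 and 94 reads in DMSO and 204, 180 and 302 reads at 6 h. The neighbouring noncoding genes Meg3 (0.45, adjusted p = 0.172) and Mirg (0.34, adjusted p = 0.283) did not pass the test, and Rian mRNA changed by 0.04 (adjusted p = 0.721). Meg3 and Mirg, like Sfmbt2 and the small RNA genes named in it and Mir292, Mir293, Mir294 and Mir295, were chosen after their values were seen. With libraries centred on their median 1 imprinted gene rose and 1 fell.

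The miR-290 to miR-295 hairpins, the most abundant miRNA cluster of mouse embryonic stem cells, had 1 hairpin that fell at 6 h. Their mature 3p products share bases that set target choice, and they are shown here from RefSeq (GRCm38.p6), 5′ to 3′, with the seed (bases 2 to 8) in capitals. The assay counts labelled reads over the hairpin gene, not these mature molecules.
miR-290a-3p: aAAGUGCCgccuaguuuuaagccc
miR-291a-3p: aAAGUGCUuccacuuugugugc
miR-293-3p: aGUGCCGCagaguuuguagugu
miR-294-3p: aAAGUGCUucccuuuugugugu
miR-295-3p: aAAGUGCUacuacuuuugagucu
The products of Mir291a, Mir294 and Mir295 hold the same seed, that of Mir290a differs in its last base, and that of Mir293 is another.

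Mir291a (chromosome 7, 3218919 to 3219000) had 139, 107 and 81.2 FPKM in DMSO and 64, 50.7 and 61.8 FPKM at 6 h. Its libraries did not overlap, and it fell by 0.86 on the log2 scale (adjusted p = 0.039), although in 1 of 6 fits without a library was the adjusted p below 0.05. Mir290a, just upstream, had 204, 192 and 118 FPKM in DMSO and 180, 180 and 168 FPKM at 6 h, where the groups overlapped (0.08, adjusted p = 0.842). Mir293 (-0.18, adjusted p = 0.603), Mir294 (-0.24, adjusted p = 0.654) and Mir295 (-0.15, adjusted p = 0.759) did not pass the test. Between 6 h and 24 h Mir290a fell by 1.31 (adjusted p = 0.00125). Of the 7 genes listed for this locus 1 fell and 0 rose, also with libraries centred on their median and scaled without Gm26917. On read numbers 2 of the 7 fell and 0 rose, with a median of -0.34. These were Mir291a (-0.97, adjusted p = 0.00167) and Mir292 (-0.61, adjusted p = 0.0342). On FPKM, Mir292 had a log2 change of -0.51 (adjusted p = 0.272).

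A pair of miRNA genes with more than a few reads were called lower, and their mature products are shown to identify them. The reads fall on the hairpin genes and, for Mir3091 and Mir1938 alike, also on the host.
miR-3091-3p: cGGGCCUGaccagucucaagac
miR-1938: cGGUGGGAcuuguaguucgguc
Mir3091 lies inside the ribosomal protein gene Rps21 (chromosome 2, 180257536 to 180257611) and had 73.1, 60.3 and 45.6 FPKM in DMSO and 28.8, 19.7 and 17.7 FPKM at 6 h. It fell by 1.42 (adjusted p = 0.0188). Mir1938 lies inside Ifrd1 (chromosome 12, 40222712 to 40222811) and had 15.2, 13.6 and 12.4 FPKM in DMSO and 6.86, 6.08 and 6.09 FPKM at 6 h. It fell by 1.06 (adjusted p = 0.00379) and rose by 1.72 between 6 h and 24 h (adjusted p = 7.27e-05). The snoRNA gene Snora43, listed under a pair of overlapping IDs on chromosome 2, had 42.4, 39 and 28.5 FPKM in DMSO and 16.7, 12.6 and 22 FPKM at 6 h under the shorter ID, a fall of 1.10 (adjusted p = 0.0242).

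Of 32 mitochondrial genes tested, 1, the tRNA gene mt-Ty, rose and 0 fell, where 7.82% of all genes tested rose. The median log2 change was 0.59, and 30 had a change above 0, as had 7822 of all 13357 genes tested. The tRNA gene was at 0 in all 3 DMSO libraries and at 1.87, 0.829 and 1.83 FPKM at 6 h, a mean of 1.7 reads. It was at 0 at 2 h too and passed the FPKM minimum only through its 6 h and 24 h libraries, so it could only rise. The summed level of these genes was 19900 to 26900 FPKM in DMSO and 23500 to 48200 FPKM at 6 h, so the groups overlapped. In mRNA 29 of 37 rose and 0 fell, with a median of 0.71, where 18.4% of all genes rose. Histone genes had a median of -0.21, and of 62 tested 0 rose and 0 fell (limma, 2 with an unadjusted p below 0.05, and 0 and 3 on read numbers).

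Most called genes were too low to be tested in mRNA. Of the 50 genes called higher, 12 were tested in RNA-seq, 4 of them rose, 1 fell and 1 rose past 2-fold, where 18.4% of all genes tested in mRNA rose and 15.5% fell. The 4 that rose were mt-Ty, Gm26945, Trh (0.33, adjusted p = 0.00428) and Spry4 (0.26, adjusted p = 0.0174), and the 1 that fell was Slc7a7 (-0.26, adjusted p = 0.0075). Zfp423 mRNA changed by 0.04 (adjusted p = 0.635). Of the 26 genes called lower, 10 were tested, and Tex19.1 (-0.76, adjusted p = 5.09e-05) and Fth1 (-0.22, adjusted p = 0.00316) fell. The mRNA of Alkbh4 changed by 0.04 (adjusted p = 0.791).

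Marks of the silencing pathway were looked for beside the called genes. H3K9me3 peaks of all 3 DMSO libraries within 5 kb of the gene start were found at 0 of the 50 higher genes (0%, exact 95% interval up to 7.11%), at 4 of the 26 lower genes (15.4%, 4.36% to 34.9%) and at 6.67% of all genes tested. The 4 lower genes were Rprl2, Gm26800, Gm27783 and Gm7850, each with a mean below 10 reads in DMSO, and Gm27783 was named after its values were seen. With peaks of all 24 h libraries the share was 0 of 26, against 0.427% of all genes tested. Within 20 kb of the start, DMSO peaks were found at 10.0% of the higher, 38.5% of the lower and 25.8% of all genes. A full-length MMERVK or MMETn element of the study's lists (1225 elements) lay within 50 kb of 0 of the higher genes, of 1 lower gene (Gm27783, 3.85%) and of 3.79% of all genes tested. These shares are a description of few genes, and IAP elements are not used here. For a called gene inside another gene, the peak window lay around the start of the nested gene, not that of its host. Several higher genes lie together inside Sfmbt2 or in or beside Rian and share their surroundings. They are not separate draws, so the interval is too narrow.

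Against 2 h, 9 genes were called higher and 8 lower at 6 h, and 186 were called higher and 90 lower at 24 h against 6 h. Of the 50 genes called higher at 6 h, 15 had moved back toward DMSO by 24 h (adjusted p below 0.05) and 2 had moved further, and of the 26 called lower, 7 had moved back and 1 further. Rian fell by 0.78 between 6 h and 24 h (adjusted p = 0.0239), and Zfp423 by 0.62 (adjusted p = 0.000713). The 6 h libraries enter both contrasts, so a 6 h library that stands apart moves both.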

How the data were processed

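TT-SLAM-seq was done in 12 libraries, 3 each of DMSO and of 2 h, 6 h and 24 h of dTAG-13, and all 12 entered 1 fit. Per the study's methods, the authors trimmed reads, removed those matching ribosomal RNA with STAR, kept reads with T-to-C conversions, counted them by strand over mm10 genes, and deposited FPKM values. The submitters' processing notes name STAR 2.7.5a and cutadapt 2.4. No spike-in is named in the sources used here. The RNA-seq values are the TPM the authors deposited, and the authors deposited H3K9me3 peaks called per library with MACS2, each with a fold enrichment over background that was used to rank peaks.

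FPKM values of up to 20 reads were whole read numbers in 100% of cases (tolerance 0.1 read) in every library, so reads were recovered from the scaling total, with the gene-body length inferred from the values. Genes with at least 0.5 FPKM in 3 of 12 libraries were fitted as log2(FPKM + 0.5) with limma 3.58.1 (trend) in R 4.3.3, and RNA-seq as log2(TPM + 0.5) with at least 1 TPM in 3 libraries. Adjusted p-values are Benjamini-Hochberg over all genes of a fit. Recovered reads were fitted with voom as an alternative. All tests are two-sided. Intervals of shares are exact Clopper-Pearson at 95% and cover counting error only. They take genes as separate draws, although some called genes lie together. The study calls its replicates biological, but nothing used here ties those of TT-SLAM-seq to separate cultures, so p-values measure the spread between these samples, which may be technical. Replicates of a group correlated at r = 0.891 to 0.938 over genes, and no pair was a copy. The fits were tested on simulated data.

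Named genes were Trim28 and genes the study names, the 12 largest rises and 12 largest falls among called genes over 200 bp, the 6 largest of each direction among genes of at least 5 FPKM, up to 4 members per list with an adjusted p below 0.05, and the 3 called small genes with most reads. The genes and lists were chosen with earlier results of these data known. Alternatives were other pseudocounts, filters and scalings, the 2 groups alone, a replicate block, read numbers, and leaving out each library. The list of IAP elements was not used here. Versions were Python 3.11.15, pandas 2.3.3 and matplotlib 3.10.9.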

Additional observations from a re-analysis of the deposited data

Results flagged for a closer look

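These results differed between time points by a test of the difference itself (limma, Benjamini-Hochberg adjusted, log2 scale), and the 6 h libraries enter each of them. Between 2 h and 6 h, mt-Ty rose by 1.96 (adjusted p = 0.00938) on a mean of 1.7 reads at 6 h. It was at 0 in every 2 h library, so it could only rise. The gene Rprl2 had a difference of -1.33 (adjusted p = 0.0334) on a mean of 1 read at 6 h.

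Between 6 h and 24 h the differences were 2.16 for Cthrc1, 1.97 for Gm43965 (adjusted p = 0.000949), 1.72 for Mir1938, 1.47 for Phlda3 and 1.45 for 2200002D01Rik, all higher at 24 h. Lower at 24 h than at 6 h were Spry4 (-1.67), Mycn (-1.57, adjusted p = 0.000275), Nr0b1 (-1.34, adjusted p = 0.000169), Mir290a (-1.31), Slc7a7 (-1.29), Gm26945 (-1.1, adjusted p = 0.0137), Trh (-1.07, adjusted p = 0.00449) and Sox2 (-1.03, adjusted p = 0.00249). Sox2 and Mycn had not passed the test at 6 h against DMSO, with log2 changes of 0.06 (adjusted p = 0.855) and -0.58 (adjusted p = 0.0602). On read numbers Mycn did pass it (-0.72, adjusted p = 0.000902).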

How the results depend on the processing

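Counts are called higher and lower. Against DMSO (50 and 26), they were 115 higher with a pseudocount of 0.1, 30 and 15 with 1, 31 and 15 with no filter, 4 and 6 with a mean of at least 5 FPKM, 86 and 64 with voom on the same genes, 26 and 15 with at least 10 reads, 181 and 147 with voom on those genes, 22 higher adjusted for gene length, 43 lower scaled without Gm26917 and 8 lower with the 2 groups alone. Of the calls reported, 27 of the 50 higher and 4 of the 26 lower were kept with the 2 groups alone. Leaving out 1 library gave 21 to 88 higher and 6 to 48 lower. Without DMSO replicate 1 the counts were 21 and 6, without DMSO replicate 2 23 and 6, without DMSO replicate 3 88 and 48, without 6 h replicate 1 24 and 6, and without 6 h replicate 3 27 and 10.

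For 6 h against 2 h (9 and 8), they were 62 and 17 with a pseudocount of 0.1, 5 lower with 1, 5 and 5 with no filter, 0 and 1 with a mean of at least 5 FPKM, 15 lower centred, 2 and 1 with the 2 groups alone, 55 and 43 with voom, 4 and 5 with at least 10 reads, 26 lower without Gm26917, 15 lower adjusted for length and 286 and 99 with voom on genes of at least 10 reads. Leaving out 1 library gave 6 to 15 and 2 to 8. For 24 h against 6 h (186 and 90), they were 463 and 150 with a pseudocount of 0.1, 87 higher with 1, 25 and 30 with a mean of at least 5 FPKM, 87 and 148 centred, 407 and 341 with voom, 123 higher with at least 10 reads, 92 and 151 adjusted for length and 912 and 770 with voom on genes of at least 10 reads. Leaving out 1 library gave 171 to 199 and 72 to 90. In RNA-seq (139 and 34), they were 262 higher with a pseudocount of 0.1, 67 and 22 with 1, 41 and 17 with a mean of at least 5 TPM, 92 higher centred, and 115 to 173 and 28 to 42 without 1 library. Shares near H3K9me3 were 10% of higher genes within 20 kb, and of lower genes 38.5% within 20 kb and 3.85% within 1 kb or with the top 10000 peaks. The cause of these differences was not tested.

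With the replicate number as a replicate block the counts were 45 and 21 against DMSO, 6 and 6 against 2 h, 178 and 88 for 24 h against 6 h and 137 and 36 in RNA-seq. In a check of pairing between DMSO and 6 h, same-numbered libraries correlated at 0.012, 0.117 and 0.177 (RNA-seq 0.014 to 0.058). DMSO replicate 1 correlated best with 6 h replicate 2 (0.101). For DMSO replicates 2 and 3, and for each RNA-seq replicate, the same-numbered library gave the highest value. The match was not complete in TT-SLAM-seq, so the numbers were not taken as pairs. The length adjustment and the fit on genes of at least 10 reads were chosen after seeing the data. Of the values of single named genes under alternatives, 1105 stayed on the same side of the threshold, 195 no longer passed it and 10 newly passed it, and 0 that passed it with the settings reported changed direction. Of the 41 called genes of 200 bp or less, 36 have a mean below 10 reads, which limits their folds.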
